A study of Mus musculus with 16 samples.

Results

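The response to high oxygen that alveolar epithelial type II (AT2) cells of wild-type and Fgf10+/- mouse pups had in common was estimated from all 16 libraries of the series. The libraries were chosen by their labels alone. They comprised 8 of 8 libraries from hyperoxia and 8 of 8 from normoxia, and each was 1 single-colour Agilent array labelled with Cy3. The hyperoxia libraries came from 6 wild-type and 2 Fgf10+/- samples, from pups that breathed 85% oxygen in a closed chamber between postnatal days 0 and 3. The normoxia libraries came from 4 wild-type and 4 Fgf10+/- samples of pups in room air. All pups were 3 days old. The Fgf10+/- pups carried 1 intact copy of Fgf10, and no transgene, Cre or drug is named in the labels. The series text gives 4 samples per group, whereas the titles and genotype labels give the numbers used here. If a genotype label were wrong, each value given by genotype, the separate fits and the interaction would change. How the cells were isolated, and whether a sample pooled pups, is not stated in any source used here, so p-values measure the spread between these samples. Of the 20725 genes measured, 2456 changed with hyperoxia over both genotypes, and each of these 2456 had the same sign in wild type and in Fgf10+/-. The fit used both genotypes at once, so the way these genes were chosen favours a shared sign. Of all genes, 68.1% had the same sign in both.

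AT2 cells make pulmonary surfactant, keep the alveolus open at birth, and divide to replace themselves and the flat type I (AT1) cells that carry gas exchange. Oxygen above the level of room air raises reactive oxygen species in these cells, and the known cellular answers include the p53 pathway, which halts division after DNA damage, and the NRF2 pathway, which induces enzymes that make glutathione and clear peroxides. Inflammatory genes of the lung epithelium are largely under the control of NF-kB, a transcription factor held inactive by IkB proteins that it itself induces. Hypoxia-inducible factor (HIF) drives glycolytic genes when oxygen is scarce and is degraded when oxygen is plentiful. Fgf10 is secreted by lung mesenchyme and acts on the epithelium through the receptor Fgfr2. Newborn mice in high oxygen serve to model bronchopulmonary dysplasia, a chronic lung disease of preterm infants.

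Values are the authors' normalised log2 intensities, between -0.4 and 15.98 over all features, so a difference of 1 is a doubling. They carry no detection flag, and no feature has a true zero. The brightest Fgf10 feature was dim, at 4.71 to 5.45 (median 5.14) in hyperoxia and 4.02 to 5.89 (median 4.41) in normoxia, and does not check the genotype labels. Its change with hyperoxia was 0.48 and was not called. Further Fgf10 features, dimmer still, gave 0.42 to 1.08, some with an unadjusted limma p under 0.05. AT2 markers were bright in all libraries. Sftpc, surfactant protein C, was at the top of the scale, at 15.95 to 15.98 in hyperoxia and 15.97 to 15.98 in normoxia, so a change in it could not be measured. RNA of other cells was present. The club cell gene Scgb1a1 was at 15.13 to 15.94 (median 15.88) in hyperoxia and 15.89 to 15.98 (median 15.96) in normoxia, and the haemoglobin gene Hba-a1 at 13.49 to 15.98 (median 15.93) and 13.30 to 15.98 (median 15.55). The mean of 10 thymocyte markers was highest in 4 normoxia libraries, at 6.43 in wild-type replicate 4 and at 6.38, 5.74 and 5.54 in Fgf10+/- replicates 2, 1 and 4. These 4 are called the thymocyte-rich libraries here. The remaining 4 normoxia libraries had 4.25 to 4.75, and all 8 from hyperoxia had 4.01 to 4.42. Wild-type normoxia replicate 1 stood apart in smooth muscle markers, with a mean of 8.70 against 6.14 to 6.82 in the other normoxia libraries. In bulk samples of this kind, fewer cells of a type and less RNA per cell cannot be told apart.

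Many differences between hyperoxia and normoxia went the same way in both genotypes. Slides and scans are not stated in any source used here. An array or handling difference that followed oxygen could not be told apart from it. In the additive limma fit, 2456 genes passed a Benjamini-Hochberg adjusted p under 0.05, or 11.9% of those tested. Of these, 1078 were higher (5.2% of genes tested) and 1378 were lower (6.65%). The median change of all genes was -0.07. When each array was centred on the median of the 20725 chosen features the median change became 0.04, and the split became 1550 higher and 817 lower, so the balance between directions depends on the scaling. At an unadjusted p under 0.05 there were 5436 genes. At least a doubling was reached by 444 of the higher genes, and at least a halving by 342 of the lower genes. In 372 of the higher genes all 8 hyperoxia libraries lay above all 8 normoxia libraries, against 381 such genes among all tested (1.84%). In 341 of the lower genes all 8 lay below, against 355 among all tested (1.71%). Without the 4 thymocyte-rich libraries 891 genes were called, 830 of them among the 2456, and with the thymocyte mean entered as a covariate 1011 were called, 867 of them among the 2456. The count was 1637 without Fgf10+/- hyperoxia replicate 2, where the lower genes numbered 875, and the lower genes numbered 890 without replicate 1 of that group.

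The genotypes were also fitted apart, on libraries that they do not share. In wild type, 6 against 4 libraries, 465 genes were called (2.24% of those tested), 285 higher and 180 lower. In Fgf10+/-, 2 against 4 libraries, 261 were called (1.26%), 192 higher and 69 lower. Of the 285 genes that rose in wild type, 281 had a positive change in Fgf10+/-, or 98.6%, compared with 46.6% of all genes. Of the 180 that fell, 177 had a negative change in Fgf10+/-, or 98.3%, compared with 53.4% of all genes. The genes that rose in wild type had a median change of 1.62 there and 1.57 in Fgf10+/-, and those that fell had -1.01 and -1.06. From the other side, 192 of the 192 genes that rose in Fgf10+/- had a positive change in wild type, with medians of 2.35 in Fgf10+/- and 2.00 in wild type. Of the 69 that fell in Fgf10+/-, 63 had a negative change in wild type (58.3% of all genes did), and here the medians were -2.12 and -0.96. Genes called in both fits numbered 143, which is 30.8% of the wild-type calls and 54.8% of the Fgf10+/- calls. The wild-type count fell to 150, 173, 253, 278 and 273 without normoxia replicates 2 and 4 and hyperoxia replicates 2, 5 and 6. The Fgf10+/- count was 158 and 121 without normoxia replicates 2 and 4. It was 7 and 88 without hyperoxia replicate 1 or 2, where the lone hyperoxia library is assumed to vary like the normoxia libraries.

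**Figure D1:**
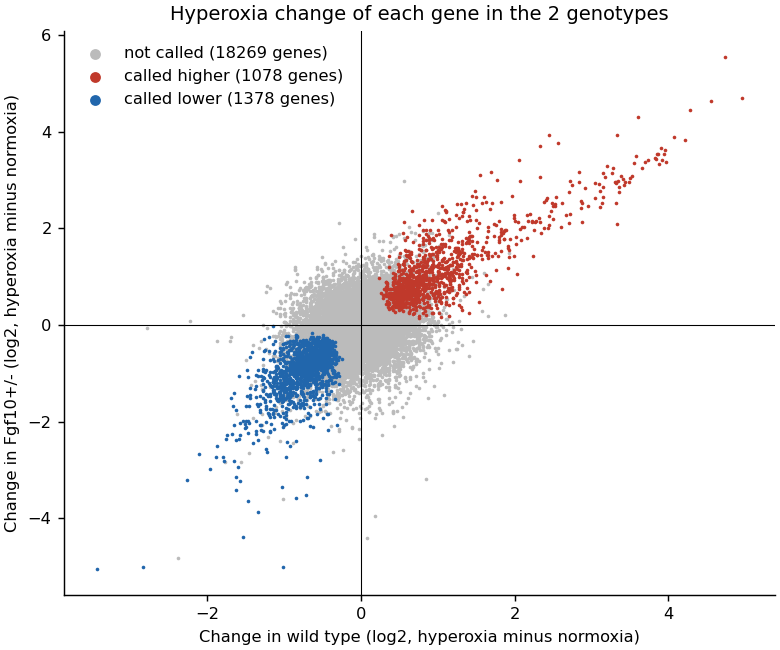
Change with hyperoxia (log2, hyperoxia minus normoxia) in wild type on the horizontal axis and in Fgf10+/- on the vertical axis, with 1 point per gene for 20725 genes. The 1078 genes called higher lie at the upper right and the 1378 called lower in the lower left, and 14122 of all genes (68.1%) have the same sign in both genotypes.

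The difference in response between the genotypes was tested as an interaction of oxygen and genotype. It was called by limma for 2 genes (0.00965% of those tested) and for 0 of the 2456, while 852 of all genes and 92 of the 2456 had an unadjusted interaction p under 0.05. A missed call does not show that the responses were equal, since 2 libraries carry the Fgf10+/- response. Where a gene had a second feature on the array with a mean of at least 6, that feature was read too. It moved the same way with an unadjusted limma p under 0.05 in 123 of 181 genes called lower (68%, against 22.2% of all genes with such a feature) and in 85 of 147 called higher (57.8%, against 13.8%). Further features of a gene could lie close together in level and change, as those of Ccl2 did at -1.15 to -0.99. Whether such features repeat 1 probe was not tested, so here and below they may not be independent readings.

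Of the DNA damage response, some p53-induced genes rose, 3 of them without any overlap of the groups, while the best known target was not called. Of 30 measured p53 targets 7 rose and 0 fell, against 5.2% and 6.65% of all genes, with a list median of 0.22. Aen, an exonuclease that p53 induces during apoptosis, was at 9.99 to 10.54 (median 10.29) in the 8 hyperoxia libraries and at 8.37 to 9.57 (median 9.05) in the 8 normoxia libraries. All hyperoxia libraries were above all normoxia libraries, and the Fgf10+/- pair, at 10.38 and 10.54, was within the upper part of the range. The change was 1.36 on the log2 scale (SE 0.15, limma adjusted p = 1.71e-05), or 2.56-fold, and a second Aen feature changed by 1.29. Phlda3, which blocks membrane binding of AKT, was at 10.25 to 11.05 (median 10.42) in hyperoxia and 7.42 to 9.19 (median 8.59) in normoxia. Its groups did not overlap either, and it was 3.83-fold higher (limma adjusted p = 4.39e-05). Ccng1, the cyclin G1 gene that feeds back on p53, was at 7.44 to 8.47 (median 7.98) and 6.37 to 6.79 (median 6.57), 2.63-fold higher without overlap (limma adjusted p = 5.52e-05). The death receptor gene Fas rose by 1.18 (limma adjusted p = 0.00329), with another feature at 0.92. Zmat3, an RNA-binding p53 target, rose by 1.06, the stress cytokine gene Gdf15 by 0.90 and the nucleotide excision repair gene Xpc by 0.50. Cdkn1a, which encodes the cell cycle inhibitor p21, was at 9.75 to 10.24 (median 10.05) in hyperoxia and 9.78 to 10.59 (median 10.08) in normoxia. Its groups overlapped almost fully, with a change of -0.13 (SE 0.14, limma adjusted p = 0.615), and 9 further bright Cdkn1a features gave -0.24 to -0.09. A pair of dim features, with means of 4.61 and 4.44, gave 1.36 and 0.50. Mdm2, the ubiquitin ligase that degrades p53, changed by 0.25 and did not pass (limma adjusted p = 0.189). Aen, Phlda3, Ccng1 and Fas kept their calls with each library left out. With the thymocyte covariate, or without the 4 thymocyte-rich libraries, 4 members of the list were called higher.

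p53 binds paired copies of a half-site of 10 bases. The promoter windows of Aen and Ccng1, 250 bases before to 50 after the start of transcription in RefSeq on GRCm38.p6, are shown because both genes rose without overlap and each window holds a half-site match, which is in capitals.
Aen, chr7:78895677-78895976, plus strand: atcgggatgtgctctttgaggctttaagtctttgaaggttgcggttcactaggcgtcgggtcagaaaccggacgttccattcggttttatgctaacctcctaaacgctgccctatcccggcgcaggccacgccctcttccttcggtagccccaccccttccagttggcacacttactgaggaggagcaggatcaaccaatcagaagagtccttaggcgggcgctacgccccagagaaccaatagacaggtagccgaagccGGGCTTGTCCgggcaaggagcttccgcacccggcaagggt
Ccng1, chr11:40755237-40755536, minus strand: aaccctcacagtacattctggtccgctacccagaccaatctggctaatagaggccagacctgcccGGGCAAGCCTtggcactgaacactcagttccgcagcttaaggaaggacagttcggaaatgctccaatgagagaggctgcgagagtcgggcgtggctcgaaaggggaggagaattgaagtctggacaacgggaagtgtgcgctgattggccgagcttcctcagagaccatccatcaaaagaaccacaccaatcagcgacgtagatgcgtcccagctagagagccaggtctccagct
The window of Phlda3 held 0 matches. The half-site, searched by its consensus on both strands, was in 3 of the 7 windows of p53 targets that rose, which belong to 2 of 5 genes since a pair of Aen windows overlap and share the site. It was in 6 of the 25 windows of members that were not called, and in 7.4% of the 20053 windows of all tested genes. A match of letters is a description and not a measured binding site.

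Enzymes of the NRF2 response rose in part. Of 27 measured NRF2 targets 6 rose and 0 fell, against 5.2% and 6.65% of all genes, with a median of 0.33. Ftl1, the ferritin light chain that stores iron, was at 15.38 to 15.53 (median 15.49) in hyperoxia and 14.45 to 15.32 (median 14.75) in normoxia. It was close to the top of the scale, the groups did not overlap, and the change was 0.69 (SE 0.14, limma adjusted p = 0.0039). Cbr3, a carbonyl reductase, was 2.61-fold higher, at 8.37 to 10.98 (median 9.65) against 7.60 to 9.01 (median 8.40). Ephx1, the microsomal epoxide hydrolase, rose by 1.17, with a second feature at 1.17. Gclc, the catalytic subunit for glutathione synthesis, rose by 0.86 (limma adjusted p = 0.0364), Txnrd1, thioredoxin reductase, by 0.73 and Taldo1, of the pentose phosphate pathway, by 0.38. Nqo1, the quinone reductase often read as the marker of this pathway, was dim at 4.08 to 5.94 (median 5.27) against 4.31 to 5.29 (median 4.85) and did not pass (change 0.48, limma adjusted p = 0.245), and Hmox1, heme oxygenase, changed by 0.41 and did not pass either. The list's count was 2 without wild-type normoxia replicate 1 or Fgf10+/- hyperoxia replicate 2, 3 without wild-type normoxia replicate 4, Fgf10+/- hyperoxia replicate 1 or wild-type hyperoxia replicates 4 or 6, 1 without the 4 thymocyte-rich libraries, and 0 with the thymocyte covariate. The antioxidant response element TGACNNNGC, searched on both strands, was in 1 of 7 windows of members that rose, 5 of 21 windows of members not called and 13.2% of all windows. Among 18 other antioxidants and metallothioneins 2 rose and 1 fell, to be read against the same 5.2% and 6.65%. Catalase (Cat) rose by 1.51 on its brightest feature and changed by -0.30 on the next, and the peroxiredoxin gene Prdx5 fell by 0.50 on the log2 scale.

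**Figure D2:**
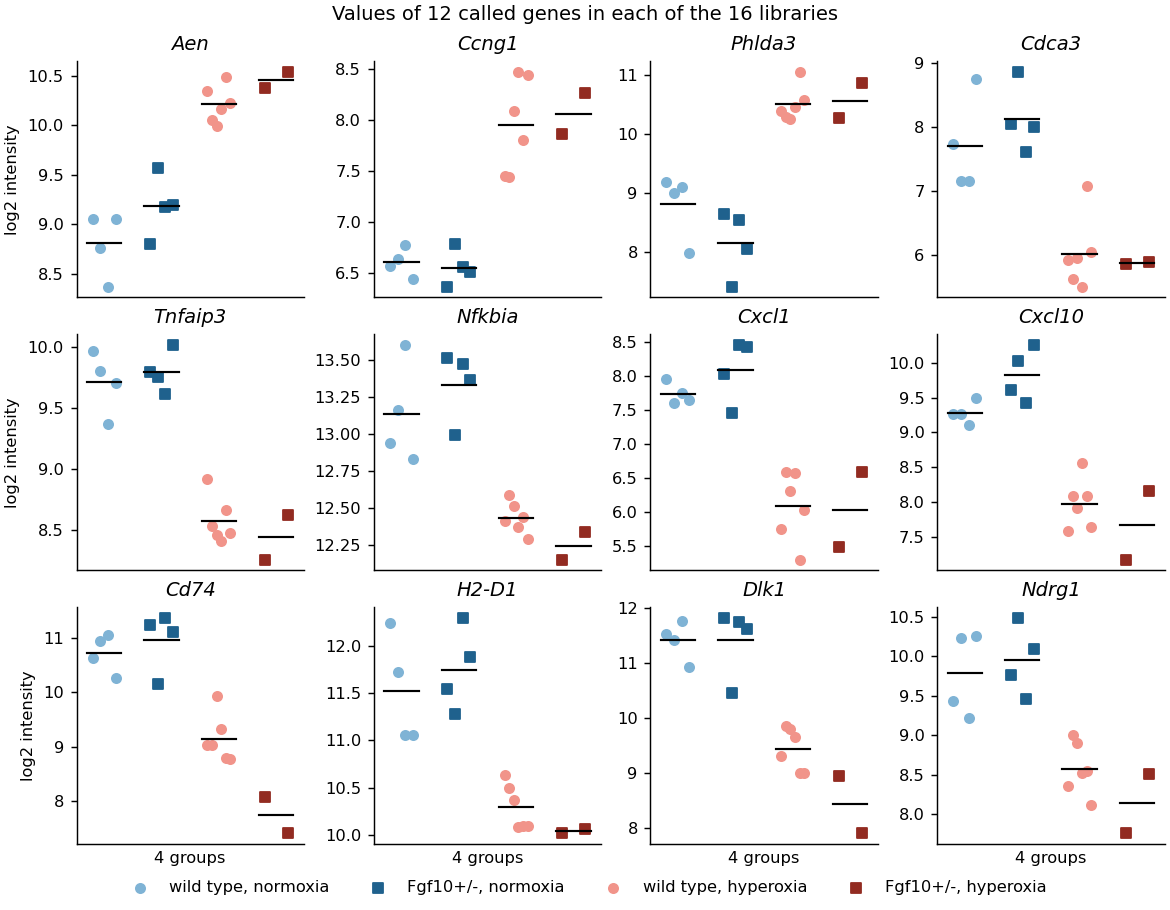
Log2 intensity of 12 called genes in each library, with wild type as circles, Fgf10+/- as squares, normoxia in blue, hyperoxia in red, and a bar at each group's mean. Aen, Ccng1 and Phlda3 are higher in all 8 hyperoxia libraries than in all 8 normoxia libraries, and the other 9 genes are lower in all 8.

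Genes of cell division were lower. All 26 measured mitosis genes had a negative change, and the median was -1.15. Of the 26, 19 fell and 0 rose, against 6.65% and 5.2% of all genes. Cdca3, which triggers entry into mitosis, was at 5.50 to 7.08 (median 5.90) in hyperoxia and 7.15 to 8.86 (median 7.86) in normoxia. The highest hyperoxia value, 7.08 in wild-type replicate 5, was just below the lowest normoxia value, and the change was -1.88 (SE 0.28, limma adjusted p = 0.000295), or 3.69-fold lower. Kif23, a kinesin of the cleavage furrow, was at 4.21 to 5.53 (median 4.94) and 5.61 to 6.30 (median 6.09), also without overlap (2.18-fold lower, limma adjusted p = 0.00102). Prc1, which bundles spindle microtubules, fell by 2.59-fold and Cdca8, a subunit of the chromosomal passenger complex, by 3.34-fold, and a second Cdca8 feature changed by -1.11. Mki67, the Ki-67 gene, was at 7.69 to 10.15 (median 8.52) and 9.09 to 10.64 (median 10.03), with overlap (-1.15, limma adjusted p = 0.0298). Of 26 DNA replication genes 12 fell and 0 rose, against the same shares of all genes, with a median of -0.70. Mcm5, a subunit of the replicative helicase, fell by 3.22-fold, Mcm7, of the same helicase, by 2.26-fold, the clamp loader gene Rfc3 by 1.93-fold and Rrm1, of ribonucleotide reductase, by 1.94-fold.

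Thymocyte markers moved with these genes. All 10 of 10 measured thymocyte markers had a negative change (median -0.90) and 2 fell: Dntt, the template-free polymerase of immature lymphocytes (-1.93), and Cd8b1 (-1.12). Of all genes 6.65% were called lower. The count of 2 became 0 without wild-type normoxia replicate 4 or either Fgf10+/- hyperoxia replicate, and 4 without Fgf10+/- normoxia replicate 3. The array has no zero, and the dimmest value of Dntt was 1.59, in hyperoxia. The mean of the mitosis list was 7.47, 7.53, 7.08 and 7.04 in the 4 thymocyte-rich libraries, in the order given above. It was 6.98, 6.39 and 6.12 in wild-type normoxia replicates 1, 2 and 3 and 6.50 in Fgf10+/- normoxia replicate 3. In hyperoxia it was 5.39 to 6.60, the highest being wild-type replicate 5, which lay within the normoxia range, while the other 7 were below all normoxia libraries. Without those 4 libraries the median was -0.78 for mitosis, where 2 members fell, and -0.31 for DNA replication, where 0 fell. With the thymocyte covariate the medians were -0.58 and -0.09, and 2 and 0 members fell. Cdca3 and Kif23 stayed called under both settings. Of the replication genes the number that fell was 3 without wild-type normoxia replicate 4 or Fgf10+/- hyperoxia replicate 1 and 5 without Fgf10+/- hyperoxia replicate 2. The mean of T and NK cell markers was 5.58 to 6.93 in hyperoxia and 5.77 to 8.02 in normoxia, and of 13 members the T cell receptor subunit gene Cd3e fell (-1.78), a call kept in 7 of the 16 fits with 1 library left out.

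Many genes that peak at mitosis share a promoter layout of CCAAT boxes and a cell cycle homology region near the start. The windows of Cdca3 and of the mitotic kinase gene Plk1 (-1.51, limma adjusted p = 0.00634) show both motifs, with CCAAT and TTTGAA in capitals on either strand.
Cdca3, chr6:124829926-124830225, plus strand: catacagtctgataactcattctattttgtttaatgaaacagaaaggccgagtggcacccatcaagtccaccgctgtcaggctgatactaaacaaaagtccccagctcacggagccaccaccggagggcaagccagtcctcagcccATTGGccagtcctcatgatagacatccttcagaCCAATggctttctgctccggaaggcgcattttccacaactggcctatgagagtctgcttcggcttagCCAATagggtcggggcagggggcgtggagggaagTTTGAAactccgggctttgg
Plk1, chr7:122159185-122159484, plus strand: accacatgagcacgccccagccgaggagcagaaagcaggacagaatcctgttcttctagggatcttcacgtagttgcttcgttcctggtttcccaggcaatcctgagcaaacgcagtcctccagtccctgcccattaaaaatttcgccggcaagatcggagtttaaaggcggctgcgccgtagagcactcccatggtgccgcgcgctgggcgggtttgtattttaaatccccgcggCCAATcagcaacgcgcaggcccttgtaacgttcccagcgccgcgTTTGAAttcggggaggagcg
CCAAT was in 15 of the 17 windows of mitosis genes that fell and in 37.9% of all windows, and TTTGAA was in 15 of the 17 and in 15.2% of all windows. Among mitosis genes that were not called, CCAAT was in 6 of 6 windows and TTTGAA in 3 of 6.

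The NF-kB feedback inhibitors and the neutrophil chemokine Cxcl1 were lower in hyperoxia. Of 13 NF-kB subunits and inhibitors 6 fell and 0 rose, against 6.65% and 5.2% of all genes, with a median of -0.30. Tnfaip3, which encodes the deubiquitinase A20, was at 8.26 to 8.92 (median 8.51) in the hyperoxia libraries and 9.37 to 10.02 (median 9.78) in the normoxia libraries. The groups were apart, with the Fgf10+/- pair at 8.26 and 8.63, and the change was -1.21 (SE 0.13, limma adjusted p = 1.9e-05), or 2.32-fold lower. Nfkbia, which encodes IkB alpha, was at 12.15 to 12.59 (median 12.39) and 12.83 to 13.60 (median 13.26), 1.79-fold lower without overlap (limma adjusted p = 0.00114). The nuclear IkB gene Bcl3 fell by 1.7-fold, and Nfkbib, IkB beta, by 1.57-fold with other features at -1.09 and -0.44. Tnip1, an A20-binding inhibitor, changed by -0.55 and Nfkb2, the p100 subunit, by -0.51. The subunit gene Rela was at 11.03 to 11.43 (median 11.24) and 10.99 to 11.83 (median 11.34) and did not pass (change -0.19, limma adjusted p = 0.414). Cxcl1 was at 5.29 to 6.58 (median 6.16) in hyperoxia and 7.46 to 8.46 (median 7.85) in normoxia, a gap with no overlap and a 3.49-fold lower level (limma adjusted p = 7.33e-05). Of the 20 inflammatory chemokines and cytokines 2 fell and 1 rose, counts near the 6.65% and 5.2% of all genes. Beside Cxcl1, the monocyte chemokine Ccl2 fell (-1.07), a call kept in 12 of the 16 fits with 1 library left out. The Ccl2 call was lost under both thymocyte settings and with the mean of smooth muscle markers as a covariate. The adhesion molecule gene Vcam1 rose (1.16), a call kept in 4 of those 16 fits. The cytokine genes Tnf (-0.10), Il6 (-0.15) and Il1b (0.60) did not pass. The number of these 20 genes that fell was 4 without wild-type normoxia replicate 3, and 1 without wild-type normoxia replicates 1 or 2 or either Fgf10+/- hyperoxia replicate. Tnfaip3, Nfkbia, Bcl3 and Cxcl1 kept their calls without each library and under both thymocyte settings.

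The windows of Nfkbia, Tnfaip3 and Cxcl1 are shown because these genes fell without overlap and carry matches to the NF-kB consensus, which are in capitals.
Nfkbia, chr12:55492598-55492897, minus strand: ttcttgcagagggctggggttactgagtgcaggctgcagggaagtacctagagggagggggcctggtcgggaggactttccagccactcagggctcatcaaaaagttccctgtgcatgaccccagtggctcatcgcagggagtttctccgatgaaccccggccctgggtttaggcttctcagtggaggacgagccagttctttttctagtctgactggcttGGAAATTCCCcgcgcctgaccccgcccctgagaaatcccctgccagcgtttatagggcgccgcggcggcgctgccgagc
Tnfaip3, chr10:19015361-19015660, minus strand: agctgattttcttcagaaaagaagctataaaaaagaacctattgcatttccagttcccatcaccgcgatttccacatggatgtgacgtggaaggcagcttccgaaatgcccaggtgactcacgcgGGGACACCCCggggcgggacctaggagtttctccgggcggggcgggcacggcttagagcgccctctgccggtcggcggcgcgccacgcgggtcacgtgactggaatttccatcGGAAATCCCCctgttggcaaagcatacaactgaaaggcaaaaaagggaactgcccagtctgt
Cxcl1, chr5:90890995-90891294, plus strand: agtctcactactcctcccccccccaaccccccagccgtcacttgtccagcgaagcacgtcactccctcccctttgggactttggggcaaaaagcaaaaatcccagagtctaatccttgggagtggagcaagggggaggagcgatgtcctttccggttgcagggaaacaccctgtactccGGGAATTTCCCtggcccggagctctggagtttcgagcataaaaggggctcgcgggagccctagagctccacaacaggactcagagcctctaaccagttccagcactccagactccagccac
In Cxcl1 the capitals cover 2 matches that overlap. The window of another annotated Tnfaip3 start held 0 matches. The consensus, searched on both strands, was in 7 of the 9 windows of list members that fell (5 of 6 genes), in 2 of 4 windows of members that were not called, and in 4.9% of all windows. Of inflammatory genes that were not called, 5 of 13 windows held it.

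Antigen presentation genes were lower. Of 13 MHC class II genes 7 fell and 0 rose (median -0.85). Of 15 genes of MHC class I and peptide loading 10 fell and 1 rose (median -0.73). Of all genes 6.65% were called lower and 5.2% higher. The medians in wild type and Fgf10+/- were -0.69 and -0.83 for class II and -0.44 and -1.24 for class I. Cd74, the invariant chain that AT2 cells express with class II, was at 7.42 to 9.93 (median 8.91) in hyperoxia and 10.16 to 11.37 (median 11) in normoxia. The lowest values were those of the Fgf10+/- pair, 8.08 and 7.42, and the groups did not overlap. The change was -2.16 (SE 0.29, limma adjusted p = 0.000116), with -1.57 in wild type and -3.22 in Fgf10+/-. The class II chain H2-Ab1 was at 7.75 to 9.16 (median 8.61) and 9.57 to 10.71 (median 10.37), 3.31-fold lower without overlap, and its second feature changed by -1.58. H2-Eb1, another class II chain, fell by 2.65-fold and the peptide editor subunit H2-DMb1 by 2.17-fold. The class II activator gene Ciita was dim, at 3.42 to 4.61 (median 4.17) and 2.64 to 4.23 (median 3.67), and did not pass (change 0.64). Of class I, H2-D1 was at 10.02 to 10.63 (median 10.09) in hyperoxia and 11.06 to 12.30 (median 11.64) in normoxia, 2.65-fold lower without overlap (limma adjusted p = 0.000239). H2-Q7 fell by 2.5-fold and H2-Q6 by 2.05-fold, and these class I genes are near copies of each other, so their features may share signal. Psmb8, an immunoproteasome subunit, changed by -1.58, the peptide transporter gene Tap1 by -0.92 and B2m, the class I light chain, by -0.72. H2-Q4 rose by 3.55, and its within-group correlation with the 8 highest risers of the array was 0.86. The unadjusted limma interaction p was under 0.05 for 5 of 13 class II and 5 of 15 class I genes, against 4.11% of all genes, and for 0 of these after adjustment. Without the 4 thymocyte-rich libraries 4 class II and 5 class I members fell, as with the thymocyte covariate. The class I count was 6 without Fgf10+/- hyperoxia replicate 1. Macrophage markers, which include other cells with class II, had a list mean of 5.56 to 6.30 in hyperoxia and 4.92 to 6.07 in normoxia. B cell markers had 5.56 to 5.99 and 5.07 to 6.20. Their part in the result was not tested.

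Interferon-induced genes were lower in part, mostly in Fgf10+/-. Of 22 measured 6 fell and 0 rose, against 6.65% and 5.2% of all genes. The median was -0.52, with -0.23 in wild type and -0.85 in Fgf10+/-. The sign was the same in both genotypes for 15 of the 22, against 68.1% of all genes. In normoxia the list mean was 7.14 to 7.30 in Fgf10+/- and 6.51 to 6.66 in wild type. In hyperoxia it was 6.27 and 6.36 in Fgf10+/- and 6.40 to 6.56 in wild type. Cxcl10, a chemokine for T cells, was at 7.17 to 8.56 (median 8) in hyperoxia and 9.11 to 10.26 (median 9.46) in normoxia, without overlap, and 3.06-fold lower (limma adjusted p = 9.43e-05). The interferon-inducible GTPase gene Igtp fell by 1.74-fold and the oligoadenylate synthetase gene Oasl1 by 1.85-fold. Oas1a, of the same family, fell by 2.98-fold, with -0.70 in wild type and -3.14 in Fgf10+/-. The transcription factor genes Irf1 and Irf7 changed by -0.51 and -0.76. For 8 of the 22 the unadjusted limma interaction p was under 0.05. The number that fell was 2 without wild-type normoxia replicate 4 or Fgf10+/- hyperoxia replicate 1, 3 without Fgf10+/- hyperoxia replicate 2, and 1 without the 4 thymocyte-rich libraries or with the thymocyte covariate. Cxcl10 was called in all of these, while its dim second feature changed by -0.72 and was not called. The windows of Cxcl10 and H2-D1 are shown as genes of the interferon and class I lists that fell without overlap, with matches to the NF-kB consensus and to the interferon response element GAAANNGAAA in capitals.
Cxcl10, chr5:92348840-92349139, minus strand: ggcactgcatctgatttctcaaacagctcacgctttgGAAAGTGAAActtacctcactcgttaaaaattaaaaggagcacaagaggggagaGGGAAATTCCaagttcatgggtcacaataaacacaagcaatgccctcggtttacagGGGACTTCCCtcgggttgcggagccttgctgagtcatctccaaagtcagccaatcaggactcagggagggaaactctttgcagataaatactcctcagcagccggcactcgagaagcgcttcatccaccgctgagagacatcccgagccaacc
H2-D1, chr17:35262844-35263143, plus strand: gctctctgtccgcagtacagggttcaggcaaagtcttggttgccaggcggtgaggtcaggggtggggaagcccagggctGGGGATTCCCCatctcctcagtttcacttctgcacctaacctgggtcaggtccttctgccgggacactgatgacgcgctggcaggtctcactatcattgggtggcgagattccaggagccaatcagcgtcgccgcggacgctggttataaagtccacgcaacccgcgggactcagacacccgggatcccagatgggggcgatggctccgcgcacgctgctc
Cxcl10 held 3 matches, and H2-D1 held 2 that overlap, both to NF-kB. The response element was in 3 of 7 windows of interferon genes that fell, in 9 of 17 windows of members not called and in 3.3% of all windows. The NF-kB consensus was in 6 of 11 windows of class I genes that fell.

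Acute phase and mucosal defence genes fell in part, with larger changes in Fgf10+/- than in wild type that did not pass adjustment as interactions. Of 17 measured 8 fell and 1 rose, against 6.65% and 5.2% of all genes. The median was -1.17, with -0.72 in wild type and -1.97 in Fgf10+/-. The genotypes lay apart in normoxia, where the list mean was 9.76 to 11.19 in Fgf10+/- and 8.24 to 9.62 in wild type. In hyperoxia it was 8.04 and 8.36 in Fgf10+/- and 8.14 to 9.20 in wild type. Itih4, an inter-alpha-trypsin inhibitor, was at 5.66 to 7.06 (median 6.85) in hyperoxia and 7.70 to 10.14 (median 8.90) in normoxia. The groups did not overlap, the change was -2.26 (limma adjusted p = 0.000409), and a second feature changed by -1.52. Cfb, complement factor B, was at 6.09 to 8.24 (median 7.46) and 7.74 to 12.10 (median 10.30), 5.85-fold lower with overlap, and Lrg1, a leucine-rich plasma glycoprotein, 3.63-fold lower. For 11 of the 17 members the unadjusted limma interaction p was under 0.05, against 852 of all 20725 genes. In wild type Cfb changed by -1.53 and Lrg1 by -1.03, and in Fgf10+/- by -4.38 and -3.35. Pigr, the polymeric immunoglobulin receptor, rose by 2.31 on its brightest feature, while another Pigr feature changed by -1.38. The count of members that fell was 5 without wild-type normoxia replicate 2, Fgf10+/- normoxia replicate 3, wild-type hyperoxia replicates 1 or 5 or either Fgf10+/- hyperoxia replicate, 4 under either thymocyte setting, and 2 with the mean of smooth muscle markers as a covariate. Club and secretory cell markers moved with this list. All 11 of 11 had a negative change (median -1.09), and their mean was 8.37 to 12.35 in hyperoxia and 10 to 12.67 in normoxia. The secretoglobin gene Scgb3a1 was at 6.37 to 15.19 (median 10.84) and 12.46 to 15.78 (median 15.24), the mucin gene Muc5b at 4.85 to 12.20 (median 7.74) and 8.53 to 13.82 (median 12.54), and both were called lower with a wide spread in hyperoxia. With 1 library left out the Scgb3a1 call was kept in 13 of 16 fits and the Muc5b call in 6. Both calls were lost under either thymocyte setting and with the smooth muscle covariate. Chad, the matrix protein chondroadherin, was 6.08-fold lower. The number of these markers that fell was 3, 5 without wild-type normoxia replicate 1, 6 without wild-type hyperoxia replicate 4, and 1 without wild-type normoxia replicates 3 or 4 or Fgf10+/- hyperoxia replicate 1. The part of secretory cells in the acute phase result was not tested.

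**Figure D3:**
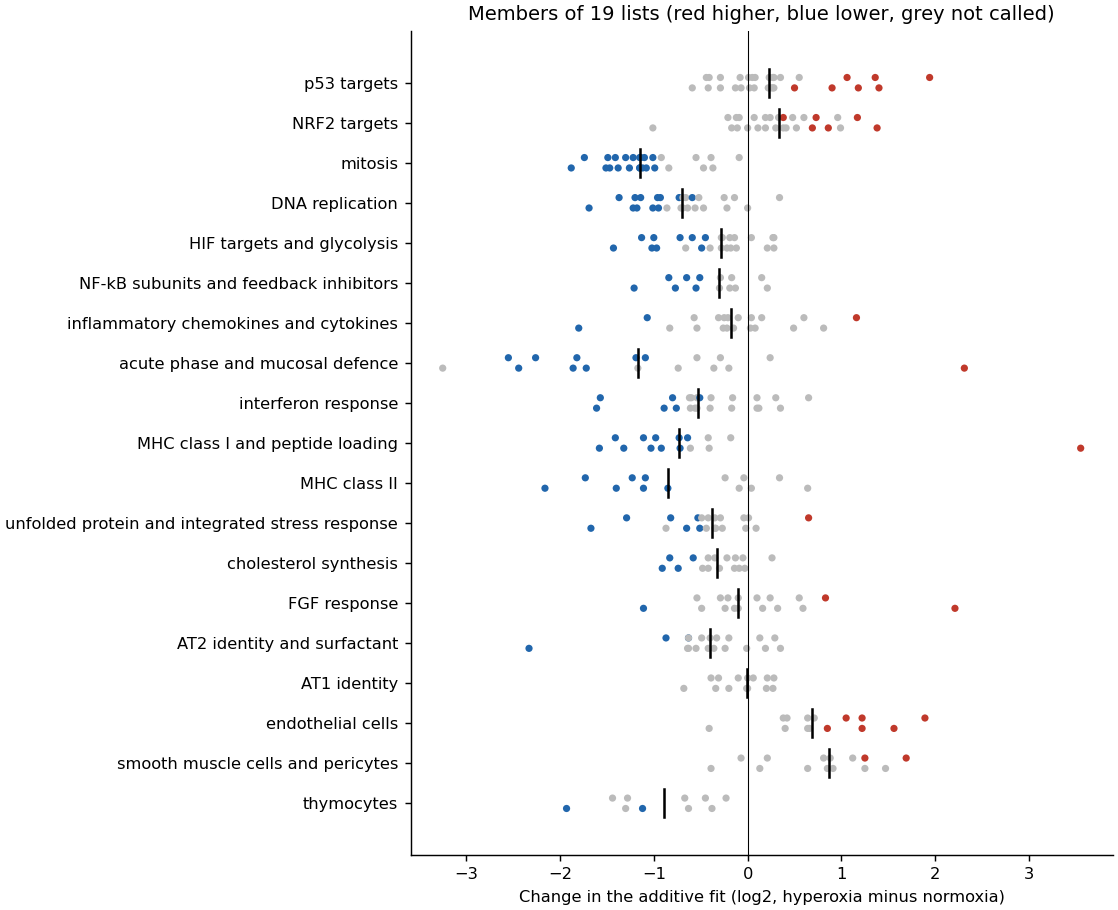
Change of each measured member of 19 gene lists in the additive fit (log2, hyperoxia minus normoxia), coloured red where called higher, blue where called lower and grey where not called, with a bar at the list median. All 26 mitosis genes lie below 0, 7 of 30 p53 targets are called higher, and the AT1 list has no called member.

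Glycolytic and hypoxia-inducible genes fell in part. Of 24 measured HIF targets and glycolysis genes 9 fell and 0 rose, against 6.65% and 5.2% of all genes. The median was -0.28. Ndrg1, a hypoxia-induced stress gene, was at 7.76 to 9 (median 8.51) in hyperoxia and 9.22 to 10.49 (median 9.93) in normoxia. The groups were apart and the level was 2.69-fold lower (limma adjusted p = 0.000492). The phosphofructokinase gene Pfkl was at 5.54 to 6.21 (median 5.94) and 6.53 to 7.25 (median 6.96), 2.03-fold lower, again without overlap. Hexokinase 2 (Hk2) fell by 1.96-fold and pyruvate kinase (Pkm) by 1.51-fold, both without overlap. The HIF hydroxylase gene Egln3 changed by -1.13 and the carbonic anhydrase gene Car9 by -1. The glucose transporter gene Slc2a1 (-0.28), Vegfa (0.28) and lactate dehydrogenase Ldha (-0.14) did not pass. Without the 4 thymocyte-rich libraries 2 members fell and with the thymocyte covariate 3, and Ndrg1 and Pfkl kept their calls under both and with each library left out. ACGTG, the core of the hypoxia response element, was in 5 of 9 windows of members that fell, 13 of 23 windows of members not called, and 21.4% of all windows.

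Cholesterol synthesis and stress response genes fell in part, while fatty acid and phospholipid counts were near those of all genes. Of all genes 6.65% were called lower and 5.2% higher. Of 16 cholesterol synthesis genes 4 fell: the sterol carrier gene Stard4 (-0.91, with a dim second feature at 0.07), the feedback regulator Insig1 (-0.83), Mvd (-0.74) and Hmgcs1 (-0.58). Of 18 fatty acid and phospholipid genes Fasn and Acly fell and Pparg, a nuclear receptor of lipid metabolism, rose. Pparg was at 6.50 to 7.80 (median 7.18) in hyperoxia and 5.88 to 6.50 (median 6.36) in normoxia (1.88-fold higher), and 9 further features gave 0.65 to 0.90. The number that fell was 0 without wild-type normoxia replicate 3 or Fgf10+/- hyperoxia replicate 2, and 1 without any of wild-type normoxia replicates 1, 2 or 4, Fgf10+/- normoxia replicate 4 or wild-type hyperoxia replicates 1, 2, 4 or 5. Among 20 stress genes of unfolded protein and amino acid shortage 6 fell and 1 rose (median -0.38), and 2 fell without the 4 thymocyte-rich libraries. Chac1, which degrades glutathione, was at 7.72 to 8.99 (median 8.43) and 9.11 to 10.86 (median 10.25), 3.18-fold lower without overlap, with -1.66 in wild type and -1.68 in Fgf10+/-. Herpud1, of endoplasmic reticulum degradation, fell by 1.57-fold, the serine synthesis gene Psat1 by 1.76-fold, and asparagine synthetase Asns rose by 1.57-fold. Of 18 immediate early genes 4 fell, led by Ier3, a stress-induced survival gene, at 8.89 to 9.64 (median 9.17) and 9.70 to 10.62 (median 10.03). Its change was -0.91, with -0.91 in wild type and -0.91 in Fgf10+/-. Others that fell were the AP-1 genes Junb (-0.95) and Jund (-0.79). Further features of Fos, another AP-1 gene, gave 0.53 to 0.68, and 0 of the 18 were called higher.

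Of the lineage genes of the alveolus, some AT2 genes fell and no AT1 gene was called. Of 19 AT2 identity and surfactant genes 3 fell and 0 rose, against 6.65% and 5.2% of all genes (median -0.40). A negative change was found in 15 of the 19, and 6 had an unadjusted limma p under 0.05. The list mean was 9.84 to 11.10 in hyperoxia and 10.41 to 11.29 in normoxia. Surfactant protein A (Sftpa1) changed by -0.87 and the lung lineage factor Nkx2-1 by -0.63. Both sat at the threshold (limma adjusted p = 0.0472 and 0.048) and were kept in 5 and 4 of the 16 fits with 1 library left out. Dlk1, a Notch-related transmembrane protein, was the member with a clear fall. It was at 7.92 to 9.86 (median 9.16) in hyperoxia and 10.46 to 11.82 (median 11.57) in normoxia, with the Fgf10+/- pair at 8.95 and 7.92. The groups were apart, the change was -2.33 (SE 0.26, limma adjusted p = 1.96e-05), and a second feature changed by -2.58. Surfactant protein B (0.35), the lipid transporter Abca3 (-0.40) and Etv5 (-0.49) did not pass. Of 14 AT1 genes 0 were called by limma, with 1 at an unadjusted p under 0.05. Ager, an AT1 receptor, was at 10.82 to 12.43 (median 11.29) and 10.90 to 12.54 (median 11.57) and Gprc5a at 12.21 to 13.85 (median 13.15) and 12.78 to 14.68 (median 13.82). Of 12 genes of the transitional state of injured epithelium 0 were called and 1 had an unadjusted p under 0.05, with the keratin Krt18 at 13.16 to 14.65 (median 14.08) and 13.18 to 14.66 (median 14.02).

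Of 17 genes of the FGF response 2 receptor genes, Fgfr3 and Fgfr4, rose and 1 fell, against 5.2% and 6.65% of all genes. Fgfr3 was at 10.51 to 10.82 (median 10.56) in hyperoxia and 8.85 to 10.22 (median 9.92) in normoxia, without overlap (0.83, limma adjusted p = 0.00653). Fgfr4 was at 7.16 to 9.04 (median 7.81) and 4.29 to 8.91 (median 5.29). Its highest normoxia value came from wild-type replicate 1 and the next from 5.80 down, so that library alone overlapped hyperoxia (4.62-fold higher, limma adjusted p = 0.00572). Dimmer second features of Fgfr3 and Fgfr4 changed by 0.33 and 0.26, and both calls were lost with the thymocyte covariate. Dusp5, a phosphatase that FGF signalling induces, fell by 2.16-fold and also was lost there. Fgfr2, the receptor for Fgf10, was at 5.88 to 6.93 (median 6.80) and 6.17 to 6.82 (median 6.48) and did not pass (change 0.10, limma adjusted p = 0.769), and neither did Etv4 (0.55), Dusp6 (0.24) or Spry2 (0.59). The median of the 17 members was -0.10.

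Other large falls of genes with groups apart were those of Vwa3b and of replication-dependent histones. Vwa3b was at 9.13 to 9.66 (median 9.33) in hyperoxia and 10.67 to 12.39 (median 11.16) in normoxia (3.55-fold lower, limma adjusted p = 1.83e-05). The histone H2A gene H2ac4 was at 8.75 to 10.37 (median 9.69) and 10.44 to 13.57 (median 12.23) (4.55-fold lower) and H2ac11 at 12.12 to 13.53 (median 12.89) and 13.65 to 15.60 (median 14.92) (3.32-fold lower). Histone genes were then counted, a choice made after these values had been seen. Of 49 measured histone genes 25 fell and 2 rose, against 6.65% and 5.2% of all genes. A negative change was found in 43, with a median of -0.74. Many are near copies, so features may share signal. With the thymocyte covariate 5 of them fell, and 7 without the 4 thymocyte-rich libraries. Hemgn, a nuclear protein of erythroid progenitors, was at 9.73 to 10.33 (median 10.03) and 10.57 to 11.57 (median 11.09) (-1.04), while the other 9 erythroid genes were not called and the list mean was 8.62 to 10.62 in hyperoxia and 8.52 to 10.57 in normoxia. The connexin gene Gjb1 fell by 2.24-fold without overlap, and Ccno, a cyclin of multiciliated cell formation, by 3-fold. Ehf, an epithelial transcription factor, changed by -1.70, with a second feature at -1.28. Rac2, a GTPase of blood cells, changed by -1.66, and Sla2, an adaptor of T cell receptor signalling, by -1.66. Neither was called under the thymocyte settings. With 1 library left out Rac2 was kept in 14 of 16 fits and Sla2 in 7, and Sla2 was also lost with centring over the chosen features, on its second feature, with robust eBayes and with the smooth muscle covariate.

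The highest risers varied together across libraries. The 8 with the highest changes, groups apart and no clone or predicted name are described first. The steroid dehydrogenase gene Hsd3b2 was at 11.89 to 14.12 (median 12.99) in hyperoxia and 8.46 to 9.35 (median 8.62) in normoxia (20.3-fold higher, limma adjusted p = 2.88e-07). Marchf1, a ubiquitin ligase that removes class II from the surface, was at 10.13 to 12.58 (median 11.44) and 6.81 to 7.78 (median 7.26). The hormone gene Fgf23 was at 11.11 to 13.55 (median 12.53) and 7.98 to 9.36 (median 8.62), and the synaptic gene Snap25 at 10.74 to 13.16 (median 12.19) and 7.61 to 8.97 (median 8.45). Pign, Idua, Klra1 and Rgs7bp complete the 8, with changes of 4, 3.80, 3.76 and 3.75. The mean of the 8 was 7.29 to 8.33 in normoxia. In hyperoxia it spread from 10.45 in wild-type replicate 3 to 13.03 in wild-type replicate 1, with 11.99 and 11.39 in the Fgf10+/- pair. The other features of these genes did not follow. Second features changed by -0.59 for Hsd3b2, 0.07 for Marchf1, -0.33 for Fgf23, -0.21 for Pign, -0.44 for Klra1, -0.12 for Rgs7bp and 0.54 for Idua, and Snap25 had 1 feature. Over the 16 libraries, with group means removed, 62 genes had a correlation over 0.9 with the mean of the 8, which holds the 8 themselves, and 58 of them were called higher. Their median change was 2.88, and 80 other features of 43 of these genes had a median change of -0.01. Most of those were dim, and the 14 with a mean of at least 6 had a median of 0.45. At a correlation over 0.7 there were 405 genes, of which 225 were called higher, 1 was called lower, and 182 belonged to the 444 that at least doubled. By contrast the correlation was 0.01 for Aen, -0.62 for Ccng1, 0.33 for Phlda3 and -0.37 for Pparg. Without the 405 genes 2154 were called, 835 higher and 1319 lower.

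**Figure D4:**
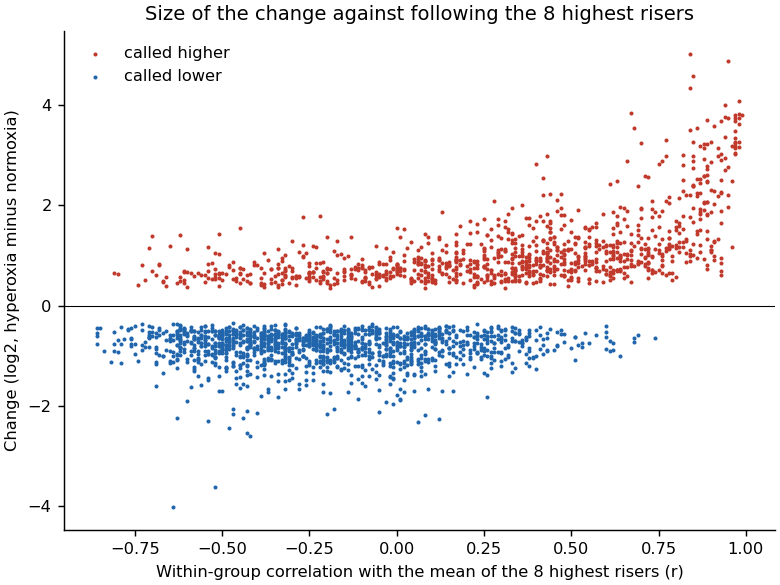
Change with hyperoxia (log2, hyperoxia minus normoxia) against the within-group correlation over 16 libraries with the mean of the 8 highest risers, with 1 point per called gene. The points above a change of 3 gather toward a correlation of 1, and 1 of the 1378 genes called lower has a correlation over 0.7.

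Some rising genes were read by another feature too, which followed to differing degrees. Rab3c, a vesicle GTPase, was at 9.21 to 11.66 (median 10.32) in hyperoxia and 6.84 to 7.59 (median 7.09) in normoxia (8.87-fold higher), and its second feature changed by 2.94. Mapt, the microtubule protein tau, rose by 2.40, with 1.83 and 1.14 on other features. Slfn9 rose by 2.76 with a second feature at 0.95, and E4f1, a ubiquitin ligase that acts on p53, by 2.78 with 0.55. For Cd300lf, Snap23 and Akap7 the brightest features gave 3.37, 3.19 and 2.90 and the second 0.77, 0.47 and 0.23. The within-group correlation with the 8 highest risers was 0.88 for Rab3c, 0.85 for Mapt and 0.89 for E4f1.

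Markers of vessels rose in part, as did 2 each of the smooth muscle and fibroblast lists. The counts in this paragraph are read against 5.2% of all genes called higher and 6.65% lower. Of 14 endothelial markers 6 rose and 0 fell, 13 had a positive change and the median was 0.68. Their mean was 8.11 to 9.39 in hyperoxia and 7.32 to 8.54 in normoxia, and it overlapped. Robo4, a guidance receptor of endothelium, was at 8.41 to 10.31 (median 9.46) and 6.73 to 8.29 (median 7.44), without overlap (3.7-fold higher, limma adjusted p = 0.000409). Egfl7, an endothelial matrix factor, rose by 2.96-fold, the VEGF receptor gene Kdr by 2.34-fold with a second feature at 1.27, and the tight junction gene Cldn5 by 2.34-fold. The dimmest Kdr feature, with a mean of 8.1, changed by 0.07. Cdh5 (0.71) and Pecam1 (0.40), general endothelial markers, did not pass. Without the 4 thymocyte-rich libraries the median was 0.65 and 2 markers were called, and with the smooth muscle mean entered as a covariate 0.52 and 3. Of 14 smooth muscle and pericyte markers 12 had a positive change and 2 rose (median 0.86), the actin-binding gene Tagln (1.69) and the myosin gene Myh11 (1.25). Their mean was 7.17 to 8.11 in hyperoxia, and in normoxia it was 6.14 to 6.82 in 7 libraries and 8.70 in wild-type replicate 1. Without that replicate 9 of the 14 rose and the median was 1.24. The number was 6 without wild-type hyperoxia replicate 4, 1 without wild-type hyperoxia replicate 1, and 0 without wild-type normoxia replicates 2, 3 or 4 or either Fgf10+/- hyperoxia replicate. Of 14 fibroblast markers 2 rose, the microfibril gene Mfap4 (2.82) and the mesenchymal factor Tcf21 (1.62), and 6 rose without wild-type normoxia replicate 1. Tcf21 was not called without wild-type normoxia replicates 2, 3 or 4, wild-type hyperoxia replicate 5 or either Fgf10+/- hyperoxia replicate. Of 14 macrophage markers Pparg and the scavenger receptor gene Marco (1.42) rose. With the smooth muscle covariate 1104 genes were called over the whole array, 963 of them among the 2456.

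**Figure D5:**
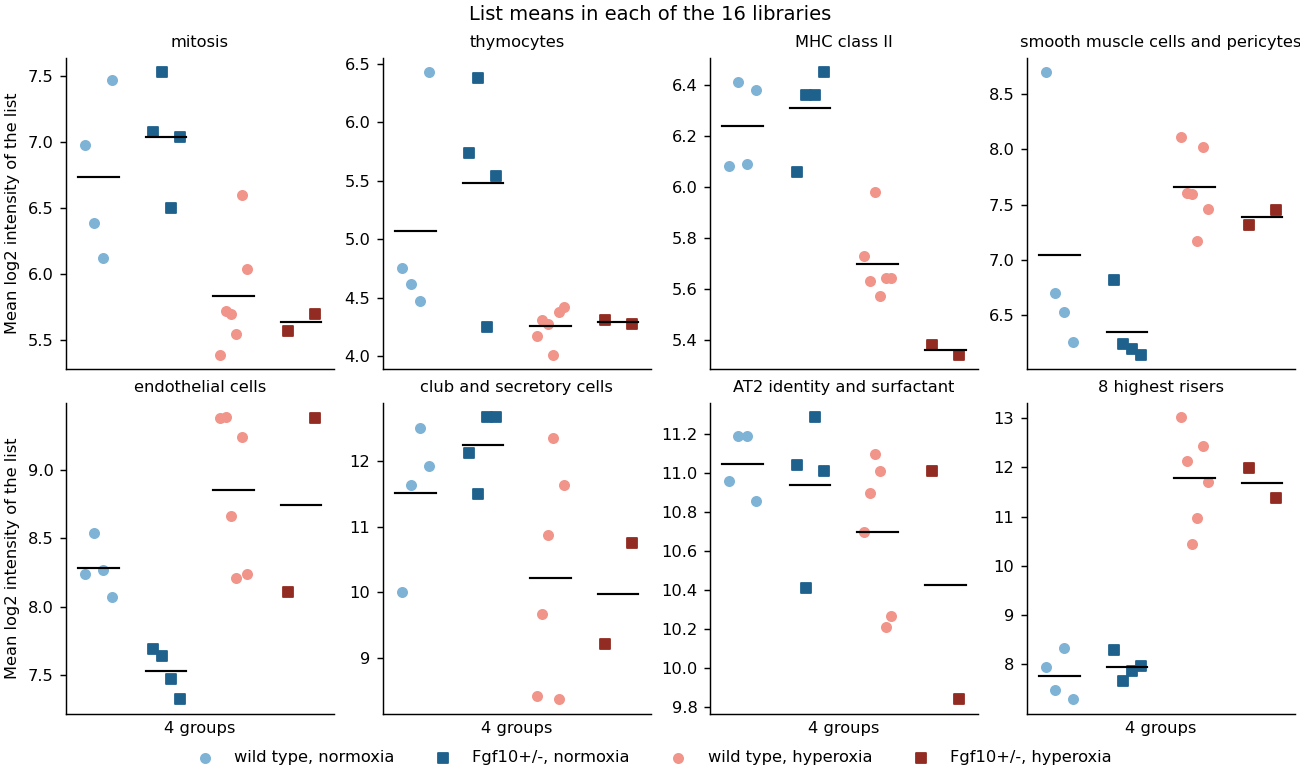
Mean log2 intensity of 7 gene lists and of the 8 highest risers in each library, with wild type as circles, Fgf10+/- as squares, normoxia in blue, hyperoxia in red, and a bar at each group's mean. Thymocyte markers are above 5.5 in 4 normoxia libraries and at 4.42 or less in all 8 hyperoxia libraries, and wild-type normoxia replicate 1 stands above the others in smooth muscle markers.

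The counts of the remaining lists are read against 11.9% of all genes called. Of 18 respiratory chain genes 1 fell, Uqcrc1 of complex III (-0.59), and the median was 0.05. Of 17 circadian clock genes Nfil3 (-0.63) and Bhlhe41 (-0.69) fell. Of 13 glucocorticoid response genes Hsd11b1, which regenerates active glucocorticoid, rose (1.46) and Zbtb16 fell (-0.59). Of 17 TGF-beta and BMP genes Tgfb1 (-0.86) and Id2 (-0.79) fell and the inhibitory Smad6 rose (1.03). Among 15 collagens and laminins Col4a1 of basement membrane rose (0.58), while Col1a2 was at 12.45 to 14.11 (median 13.40) and 11.53 to 14.63 (median 12.95) and was not called. Of 13 cytochrome and aryl hydrocarbon receptor genes Por fell (-0.78). Of 12 ion and water channels of fluid clearance 0 were called by limma and 2 had an unadjusted p under 0.05, with the water channel gene Aqp1 at 11.75 to 12.57 (median 12.31) and 12.05 to 12.91 (median 12.54). Of 14 ciliated cell genes Ccno and Ccdc40 (-1.23) fell and Mcidas rose (3.74, within-group correlation 0.98 with the 8 highest risers). Of 12 neutrophil genes myeloperoxidase (-1.70) and lactoferrin (-2.24) fell and Csf3r rose (1.52, correlation 0.82). Of 8 basal cell genes 0 were called and 4 had an unadjusted p under 0.05, with Trp63 at 0.64. Of 7 B cell genes Cd22 rose on 1 feature (1.60) and gave -0.17 on another. With 1 library left out the calls of Bhlhe41 and Hsd11b1 were kept in 14 of 16 fits, those of Zbtb16 and Smad6 in 13, that of lactoferrin in 9 and that of Ccdc40 in 4, and Col4a1 was lost in 10. Second features of Ccdc40 and myeloperoxidase changed by -0.30 and -0.55.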

How the data were processed

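AT2 RNA was measured on 16 arrays. The deposited values were log2 intensities, 1 per feature and array, a scale inferred from their range. The sorted values of any array lay within 0.2 of those of the others, from which it was inferred that the authors had normalised the arrays to 1 distribution. Software, background correction, slides and scans are not stated in any source used here. Features with a missing value (65) were left out. The annotation named 1 gene for 31465 of 62976 features, no gene for 31511 and several for 0. Symbols were updated through RefSeq (GRCm38.p6), and the brightest feature stood for each of 20725 genes.

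Groups followed titles and genotype labels. Log2 values were fitted with limma 3.58.1 in R 4.3.3 (oxygen plus genotype, eBayes), with an oxygen by genotype fit for the interaction and separate fits per genotype, and Benjamini-Hochberg adjustment over 20725 genes at 0.05. The number of arrays limits the precision. Of 685 list members written, 653 were measured in 41 lists.

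Members and lists were chosen with earlier results of these data known. Named genes were the 8 highest and 8 lowest called changes with groups apart, of at least 1.5-fold and without clone names, the same with support from another feature, up to 4 called members (or the brightest) of each list, and 10 fixed genes. Other names were chosen after their values had been seen. Promoter windows came from RefSeq for 16404 tested genes. Alternatives covered scaling, choice of feature, filter, model terms, marker covariates, replicate blocks and each library left out. Those that centred or quantile-normalised over the chosen features, and the counts within each list under marker covariates or with libraries left out, were added after seeing the data.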

Additional observations from a re-analysis of the deposited data

Results flagged for a closer look

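In 340 sets of 8 libraries (each named gene and each list mean, in each oxygen condition) 25 had 1 library far from the other 7, and chance gives about 1 in 20. Wild-type normoxia replicate 1 was that library most often. It was high in Fgf10 (5.89), Fgfr4 (8.91), Hsd11b1 (8.79), Myh11 (7.65), Tagln (12.78), Tcf21 (8.31), Vcam1 (8.92), the fibroblast list mean (10.15) and the smooth muscle list mean (8.70), and low in Asns (8.14), H2-Eb1 (8.56) and the club cell list mean (10).

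Fgf10+/- normoxia replicate 1 was low in Bcl3 (8.67) and high in Insig1 (8.11) and Vwa3b (12.39), and Fgf10+/- normoxia replicate 3 was high in the cholesterol synthesis mean (7.81). Wild-type normoxia replicate 4 was low in Klra1 (4.77). In hyperoxia, wild-type replicate 5 was high in Cdca3 (7.08) and Prc1 (7.83) and low in the glucocorticoid response mean (9.12). Wild-type hyperoxia replicate 4 was low in Dntt (1.59) and high in the p53 target mean (7.87). Fgf10+/- hyperoxia replicate 1 was high in Ager (12.43) and in the AT1 mean (10.86), and replicate 2 was low in Dlk1 (7.92).

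The effect of hyperoxia differed between genotypes by the limma interaction for C1rb (interaction -2.20, with 0.42 in wild type and -1.78 in Fgf10+/-, adjusted p = 0.0471) and for Psd2 (interaction -2.22, with 0.53 and -1.69, adjusted p = 0.0471). Neither was called in the additive fit.

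Of 31472 features with no listed gene, which no comparison above uses, 1825 were called for hyperoxia by limma in a fit over all features (5.8%), 1365 higher and 460 lower. Of 31439 named features 2546 were called (8.1%), 1153 higher and 1393 lower. The highest rise was 5.83 among unnamed and 5.02 among named features.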

How the results depend on the processing

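The additive count of 2456 (1078 higher, 1378 lower) became 1011 (493 and 518) with the thymocyte covariate, 1104 (551 and 553) with the smooth muscle covariate, and 891 (466 and 425) without the 4 thymocyte-rich libraries. Centring over the chosen features gave 817 lower genes, and second brightest features gave 694 higher. With 1 library left out it was 1637 to 2603, with 762 to 1174 higher and 875 to 1455 lower. With group means removed, same-numbered libraries had correlations of -0.16 to 0.24. Differently numbered libraries were not compared, so these values do not settle whether the replicate numbers pair the samples. With the replicate block the count was 1519 (715 and 804), and the wild-type count of 465 became 1. Restricting to genes with a mean of at least 6 gave 949 in wild type, 659 in Fgf10+/- and 0 for the interaction, and the mean of all features gave 142 in Fgf10+/-. With 1 library left out the counts were 150 to 434 in wild type, 7 to 196 in Fgf10+/- and 0 to 3 for the interaction. The causes were not tested.

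Of 129 named genes 117 were called, and 88 kept the call with each library left out. On the second brightest feature the sign turned for Cat (-0.30), Cd22 (-0.17), Fgf23 (-0.33), Hsd3b2 (-0.59), Klra1 (-0.44), Pign (-0.21), Pigr (-1.38), Rgs7bp (-0.12), Stard4 (0.07) and Fgfr2 (-0.26). Genes that were not called also crossed 0. With centring over the chosen features Ager was 0.01, Krt18 0.07 and Sftpc 0.10. With the replicate block Ager was 0.06 and Krt18 0.13. With the smooth muscle covariate Ager was 0.10, Col1a2 -0.50 and Krt18 0.36. With the thymocyte covariate Fgfr2 was -0.04, with the mean of features Fgfr2 -0.09 and Cdkn1a 0.03, and with equal weight to the genotypes Krt18 0.00. With 1 library left out, Ager ranged from -0.29 to 0.03, Krt18 from -0.19 to 0.11 and Col1a2 from -0.04 to 0.58. Features near background or at the top of the scale limit what a small change can show.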

Other observations

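Imprinted growth genes, counted after the values of Dlk1 had been seen, fell in part. Of 12 measured 5 fell and 1 rose by limma, against 6.65% and 5.2% of all genes. The list median was -0.01, with 6 of 12 changes negative, and Dlk1, which led to the choice, is among the 5. H19, a noncoding RNA of the fetal growth network, was at 9.91 to 11.38 (median 10.62) in the 8 hyperoxia libraries and 11.67 to 13.02 (median 12.44) in the 8 normoxia libraries, without overlap (-1.71, limma adjusted p = 0.000162). The growth inhibitor gene Cdkn1c (-0.92), Plagl1 (-0.74) and the growth factor gene Igf2 (-0.62) fell, as did Dlk1 (-2.33). Meg3, the noncoding RNA of the Dlk1 locus, rose, at 9.06 to 10.57 (median 9.87) against 7.79 to 9.28 (median 8.80) (1.11, limma adjusted p = 0.00757), the opposite sign to Dlk1. Without the 4 thymocyte-rich libraries, and with the thymocyte covariate, 4 of the 12 fell.

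Among histone genes, H4c8 rose, at 5.64 to 7.40 (median 6.53) in hyperoxia against 3.30 to 4.87 (median 4.06) in normoxia (2.49, limma adjusted p = 1.83e-05), while 25 others fell, among them H4f16 (-1.70) and the linker histone gene H1f5 (-1.87).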
